A study of Mus musculus with 6 samples.

Results

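The genes described here are the actins of striated muscle and of the cytoskeleton, with the proteins that set the length of the muscle thin filament, in engineered muscle exposed to tumour necrosis factor alpha (TNF-alpha). They were chosen by symbol. All 10 of the listed genes (Acta1, Actc1, Actb, Actg1, Neb, Tmod1, Tmod4, Lmod2, Lmod3 and Klhl41) were found among the 24421 rows of the deposited count table, and all 10 passed the filter on low counts. The cells were C2C12, an immortalised mouse myoblast line that fuses into myotubes, cast in type I collagen and differentiated under tension. Of the 6 constructs, 3 received TNF-alpha at 100 ng/mL and 3 received phosphate-buffered saline (vehicle), both for 72 h. The sample titles call the constructs biological replicates. All constructs share 1 cell line and 1 culture system, and the labels do not tie the replicates to separate cell batches. The tests below therefore weigh differences against the spread among constructs, which may be technical.

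In the sarcomere, the contractile unit of striated muscle, thin filaments are polymers of actin anchored by their barbed ends in the Z-disc. Nebulin (Neb) is a giant protein that runs along the filament, tropomodulins cap the pointed end, and leiomodins nucleate actin and act at the pointed end. Klhl41 is a Kelch protein of muscle that stabilises nebulin in mice. Acta1 encodes skeletal and Actc1 cardiac alpha-actin, which immature skeletal muscle also makes, whereas Actb and Actg1 encode the cytoplasmic beta- and gamma-actins of nearly all cells. Acta2 and Actg2, the smooth-muscle actins, complete the family and are used here as related genes. In humans, defects of ACTA1, NEB, LMOD3, KLHL40 and KLHL41 are known causes of nemaline myopathy.

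Actin paralogs are told apart by sequence, so the starts of their coding sequences are shown. The lines below give bases 1 to 60 from the start codon, from GENCODE M21 transcripts on GRCm38, with capitals at bases that differ from Acta1 when the sequences are aligned with gaps.
Acta1: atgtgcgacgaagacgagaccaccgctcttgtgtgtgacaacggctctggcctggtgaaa
Actc1: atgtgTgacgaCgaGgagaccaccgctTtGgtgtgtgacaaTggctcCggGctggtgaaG
Acta2: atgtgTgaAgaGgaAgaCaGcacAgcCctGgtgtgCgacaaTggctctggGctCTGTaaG
Actg2: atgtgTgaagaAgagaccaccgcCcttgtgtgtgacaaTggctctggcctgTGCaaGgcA
Actb: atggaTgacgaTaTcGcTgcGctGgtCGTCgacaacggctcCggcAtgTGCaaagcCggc
Actg1: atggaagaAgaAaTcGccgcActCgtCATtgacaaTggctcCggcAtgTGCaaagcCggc
In these stretches Actc1 differed from Acta1 at 9 bases, Acta2 at 17 and Actb at 17. Over the whole coding sequence the 15 pairs of the 6 actin genes were 81.5% to 88.7% identical, with Acta1 and Actc1 at 86.2% and Actb and Actg1 at 88.7%. The longest identical run in any pair was 77 bases, between Acta1 and Actb. No window of 151 bases, the length of a read, was shared between the 15 pairs of transcripts compared. The deposited counts of Actc1 and Actg2 were whole in all 6 libraries, whereas those of Actb and Actg1 carried decimals in 6, Acta1 in 4 and Acta2 in 3 libraries and are therefore less certain.

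Libraries held 85429933 to 93533748 counts with TNF-alpha and 81713008 to 93030292 counts with vehicle. Myotube markers were present in both groups, and all 10 of the list were tested. Their summed level was 4610 to 4891 CPM (library-scaled counts by the TMM method of edgeR) with TNF-alpha and 8286 to 9563 CPM with vehicle. Of the 10, 9 fell and 1 rose. The risen gene was Myog, at 878 ± 24.9 CPM with TNF-alpha and 669 ± 57.3 CPM with vehicle (SD, n = 3 each). Leukocyte markers were low in both groups, at 21.2 to 22.9 CPM with TNF-alpha and 5.67 to 5.90 CPM with vehicle for 8 genes together, of which 3 (Ptprc, Adgre1 and Cd3e) did not pass the filter, 3 rose and 2 were not past the test. The 6 endothelial markers summed to 4.34 to 4.99 CPM with TNF-alpha and 4.41 to 6.19 CPM with vehicle, with 1 risen and 1 fallen of 4 tested. The 8 fibroblast markers, which C2C12 cells express, summed to 10776 to 11860 CPM with TNF-alpha and 9422 to 9976 CPM with vehicle, but of the 7 tested 5 fell and 2 rose (median log2 fold change -1.27; Thy1 did not pass the filter). The sum follows Dcn (decorin), at 6022 ± 200 CPM with TNF-alpha and 2029 ± 265 CPM with vehicle (SD, n = 3 each), whereas Col1a1, Col1a2, Col3a1, Lum and Dpt fell. Of the 8 markers of proliferating myoblasts and satellite cells, 7 were tested, of which 5 fell (Pax7, Mki67, Top2a, Ccnb1 and Cdk1) and 2 rose (Myf5 and Sdc4). The proliferation gene Mki67 stood at 13.7 ± 10.4 CPM with TNF-alpha and 74.3 ± 15.4 CPM with vehicle. The summed level of that list was 551 to 571 CPM with TNF-alpha and 494 to 614 CPM with vehicle, of which Sdc4 made 490 ± 25.3 CPM with TNF-alpha and 267 ± 22.1 CPM with vehicle. No marker of these lists was at 0 in all libraries.

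TNF-alpha left the skeletal actin transcript near its vehicle level while most of the other sarcomeric members fell. With edgeR's quasi-likelihood test and an adjusted p (Benjamini-Hochberg) under 0.05, 7 of the 10 genes fell (Actc1, Klhl41, Neb, Tmod4, Lmod3, Tmod1 and Lmod2), 1 rose (Actg1) and 2 were not past the test (Acta1 and Actb). Over all 15792 tested genes 27.9% fell and 27.6% rose. In 8 of the 10 genes the 3 TNF-alpha libraries did not overlap the 3 vehicle libraries, where this held for 64.5% of all tested genes. The median log2 fold change was -0.93 over the 10 genes and 0.0048 over all tested genes. Together the 10 genes took 0.755% ± 0.039 of all counts with TNF-alpha and 0.899% ± 0.019 with vehicle (SD, n = 3 each). In constructs measured in bulk, fewer myotubes and less of a transcript per myotube cannot be told apart, and the part of the lower myotube and proliferation markers in these falls was not tested.

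**Figure D1:**
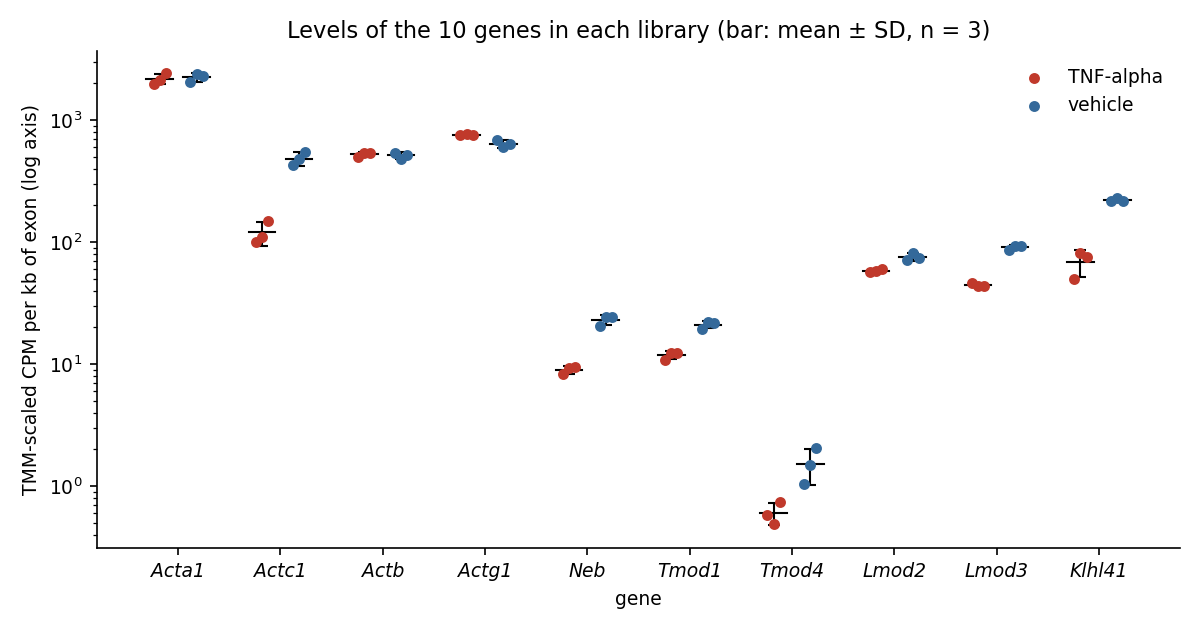
Level of each of the 10 genes per kb of exon (TMM-scaled CPM per kb, log axis) in the 3 TNF-alpha libraries (red, left) and the 3 vehicle libraries (blue, right), with mean ± SD as black bars. Acta1 and Actb overlap between the groups, while all 3 TNF-alpha points of Actc1, Neb and Klhl41 lie below all 3 vehicle points.

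The sarcomeric actins parted. Acta1 (GRCm38 chr8:123891769-123894751, minus strand) had 3044, 3292 and 3696 CPM in TNF-alpha replicates 1, 2 and 3, against 3147, 3665 and 3496 CPM in vehicle replicates 1, 2 and 3. The groups overlapped, and the highest and the lowest of the 6 values were both TNF-alpha libraries. The log2 fold change of Acta1 was -0.04 ± 0.10 (SE; 95% interval -0.26 to 0.19, adjusted p = 0.759), and its sign turned without TNF-alpha replicate 1 (0.025) or vehicle replicate 2 (0.0078). Actc1 (chr2:114047282-114053548, minus strand) had 163, 177 and 242 CPM with TNF-alpha, against 687, 774 and 880 CPM with vehicle. Every TNF-alpha library lay below every vehicle library, and TNF-alpha replicate 3 was the highest of its group. Actc1 fell 4.02-fold (log2 fold change -2.01 ± 0.17, adjusted p = 5.19e-05).

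The summed count of Acta1 and Actc1, which does not depend on how reads were split between the pair, was 3538 ± 371 CPM with TNF-alpha and 4216 ± 333 CPM with vehicle (log2 fold change -0.25 ± 0.10, adjusted p = 0.0624 by edgeR). That sum was past the test under 4 of 15 alternatives, among them leaving out TNF-alpha replicate 3 (-0.34, adjusted p = 0.0383).

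The cytoplasmic actins stood close to their vehicle levels. Actg1 (chr11:120345690-120348542, minus strand) had 2006, 2031 and 1996 CPM with TNF-alpha, against 1839, 1582 and 1683 CPM with vehicle. All 3 TNF-alpha values lay above the vehicle values and within a narrow range. Actg1 rose by 0.24 ± 0.08 on the log2 scale (adjusted p = 0.0282), a 1.18-fold difference. This call was lost with upper-quartile scaling (adjusted p = 0.0551) and when TNF-alpha replicate 2 (0.0754) or 3 (0.0820) or vehicle replicate 2 (0.0908) or 3 (0.0653) was left out, in a range of 0.00305 to 0.0908 over 15 alternatives. Actb (chr5:142903115-142906754, minus strand) had 1341, 1448 and 1439 CPM with TNF-alpha and 1441, 1279 and 1393 CPM with vehicle. The groups overlapped, and the log2 fold change was 0.04 ± 0.08 (95% interval -0.14 to 0.21, adjusted p = 0.687), with a negative sign (-0.010) without vehicle replicate 2. Per kb, the Actb level was 0.695 ± 0.028 of the Actg1 level with TNF-alpha and 0.800 ± 0.022 with vehicle (SD, n = 3 each; exact two-sided permutation p = 0.1, 0.129 adjusted over 9 ratios). A p of 0.1 is the smallest that 3 against 3 libraries allow. Actg1 shares 64 exon bases with the microRNA gene Mir6935 on the same strand, which stood at 2.08 to 2.61 CPM with TNF-alpha and 3.82 to 4.23 CPM with vehicle. The summed count of Actb and Actg1 was not past the edgeR test (0.15 ± 0.08, adjusted p = 0.132). Per kb, Acta1 and Actc1 together stood at 1.79 ± 0.17 times the level of Actb and Actg1 together with TNF-alpha and at 2.38 ± 0.34 times with vehicle (SD, n = 3 each). Those groups did not overlap, although the highest TNF-alpha value (1.98) lay beside the lowest vehicle value (2.01; exact permutation p = 0.1, 0.129 adjusted over 9 ratios).

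The smooth-muscle actins, which are not among the 10 genes, also fell. Acta2 had 251, 266 and 284 CPM with TNF-alpha, against 1615, 1494 and 1273 CPM with vehicle, and fell 5.47-fold (-2.45 ± 0.10, adjusted p = 5.7e-07). Actg2 had 1.44, 1.08 and 1.95 CPM with TNF-alpha, against 21.5, 13.2 and 16.9 CPM with vehicle, and its log2 fold change was -3.53 ± 0.26 (adjusted p = 2.87e-05). The groups did not overlap for either gene. Of the 8 smooth-muscle and myofibroblast markers, a list that holds both genes, 5 fell and 1 (Smtn) rose, with 2 not past the test, and their summed level was 2251 to 2457 CPM with TNF-alpha and 3609 to 3932 CPM with vehicle. Myh11, the smooth-muscle myosin heavy chain and a marker that defines the type, was near the floor of detection, at 0.331 ± 0.032 CPM with TNF-alpha and 0.335 ± 0.014 CPM with vehicle, so that its test says little (log2 fold change -0.02 ± 0.28, adjusted p = 0.960).

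The makeup of the actin transcripts shifted toward Acta1 and the cytoplasmic actins. As a share of the summed level per kb of the 6 actin genes, Acta1 made up 57.4%, 58.3% and 60.5% in the TNF-alpha libraries, against 46.0%, 51.6% and 49.9% in the vehicle libraries. Actc1 made up 3.21% ± 0.48 with TNF-alpha and 10.6% ± 1.21 with vehicle. Acta2 made up 3.29% ± 0.03 with TNF-alpha and 14.6% ± 1.91 with vehicle (SD, n = 3 each). The share of Actg1 was 20.5% ± 1.50 with TNF-alpha and 14.1% ± 1.35 with vehicle, and that of Actb 14.2% ± 0.63 with TNF-alpha and 11.3% ± 0.89 with vehicle. The groups did not overlap for any of the 6 shares, each with an exact permutation p of 0.1, the smallest possible (also 0.1 after adjustment for 6 shares). Shares of a fixed total move together, so a larger share of Acta1 is no higher level of it. The summed count of the 6 genes was 7227 ± 427 CPM with TNF-alpha and 8766 ± 34.5 CPM with vehicle, and it fell (log2 fold change -0.28 ± 0.08, adjusted p = 0.0173 by edgeR), with an adjusted p of 0.0575 without vehicle replicate 1.

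**Figure D2:**
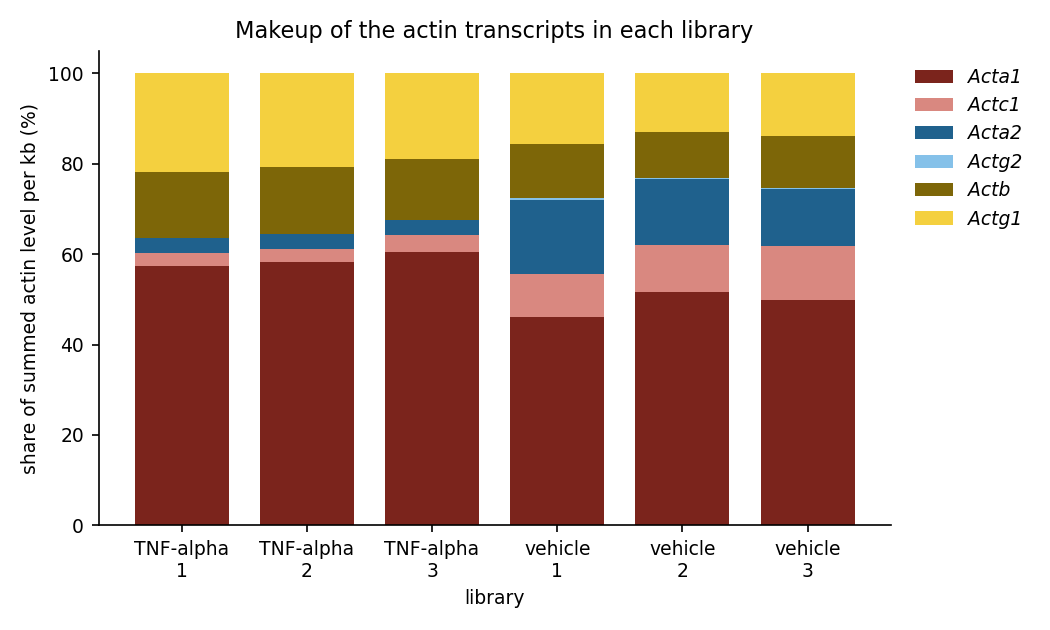
Share of each of the 6 actin genes in their summed level per kb of exon, in percent, with 1 stacked bar per library (TNF-alpha left, vehicle right). The Actc1 and Acta2 segments are narrower in all 3 TNF-alpha bars, at 3.21% and 3.29% on average, against 10.6% and 14.6% in vehicle bars.

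Nebulin transcripts fell, in level and relative to skeletal actin. Neb (chr2:52136647-52378474, minus strand) had 220, 249 and 252 CPM with TNF-alpha, against 545, 650 and 641 CPM with vehicle. All TNF-alpha libraries lay well below the vehicle libraries. Neb fell 2.55-fold (-1.35 ± 0.09, adjusted p = 6.21e-06). Per kb of exon the Neb level was 0.00416 ± 0.00022 of the Acta1 level with TNF-alpha and 0.0103 ± 0.0003 with vehicle (SD, n = 3 each), a ratio 2.47-fold lower with TNF-alpha in groups that did not overlap (exact two-sided permutation p = 0.1, 0.129 adjusted over 9 ratios). The deposited counts of Neb, Klhl41 and Tmod1 carried decimals in all 6 libraries and those of Klhl40 in 3, and are less certain for it.

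Klhl41 (chr2:69670120-69684230, plus strand) had 126, 206 and 191 CPM with TNF-alpha, against 551, 576 and 552 CPM with vehicle. TNF-alpha replicate 1 was the lowest library, and the TNF-alpha group had a coefficient of variation of 24.5%, against 2.53% in the vehicle group. Klhl41 fell 3.21-fold (-1.68 ± 0.17, adjusted p = 1.85e-04). Its level relative to Neb, per kb, was 6.02, 8.69 and 7.99 with TNF-alpha, against 10.6, 9.31 and 9.04 with vehicle. The groups did not overlap, but the lowest vehicle value lay close to the highest TNF-alpha value (log2 difference -0.37, exact permutation p = 0.1, 0.129 adjusted over 9 ratios). That difference was -0.21 without TNF-alpha replicate 1.

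Both tropomodulins of muscle fell. Tmod1 (chr4:46038935-46116032, plus strand), the pointed-end cap of striated muscle, had 42.9, 49.0 and 48.7 CPM with TNF-alpha, against 76.7, 86.7 and 86.3 CPM with vehicle. The groups lay apart, and Tmod1 fell 1.78-fold (-0.83 ± 0.08, adjusted p = 3.5e-05). Tmod1 shares 1287 exon bases with Tstd2 on the opposite strand, and the use of strand in counting is not given in the sources used here. Tstd2 itself had a log2 fold change of 0.02 ± 0.07 (adjusted p = 0.816). Tmod4 (chr3:95124476-95129209, plus strand), a skeletal-muscle tropomodulin, had few counts, with 94, 72 and 106 in the TNF-alpha libraries and 150, 240 and 322 in the vehicle libraries. Tmod4 fell 2.53-fold (-1.34 ± 0.27, adjusted p = 0.00286), with a vehicle coefficient of variation of 32.5%. The Tmod1 to Tmod4 ratio per kb was 20.1 ± 4.52 with TNF-alpha and 14.6 ± 3.88 with vehicle and overlapped between the groups (log2 difference 0.47, exact permutation p = 0.3, 0.338 adjusted over 9 ratios). Leaving out TNF-alpha replicate 2 gave 0.30, and leaving out vehicle replicate 3 gave 0.27.

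The leiomodins fell by unequal amounts. Lmod3 (chr6:97238534-97252759, minus strand), the leiomodin of skeletal muscle, had 103, 96.5 and 95.9 CPM with TNF-alpha, against 190, 207 and 205 CPM with vehicle. Lmod2 (chr6:24597762-24605414, plus strand), abundant in heart, had 111, 115 and 119 CPM with TNF-alpha, against 140, 162 and 148 CPM with vehicle. In both genes every TNF-alpha library lay below every vehicle library. Lmod3 fell 2.04-fold (-1.03 ± 0.06, adjusted p = 3.52e-06) and Lmod2 fell 1.30-fold (-0.38 ± 0.07, adjusted p = 0.00154). Their order was turned round: per kb, the Lmod2 level was 1.21, 1.33 and 1.39 times the Lmod3 level in the TNF-alpha libraries, against 0.827, 0.876 and 0.806 times in the vehicle libraries. The log2 difference between the groups was 0.65 (exact permutation p = 0.1, 0.129 adjusted over 9 ratios), and it was 0.60 to 0.71 without 1 library. Klhl40, a Kelch protein that stabilises Lmod3 and nebulin in mice, also fell (log2 fold change -0.55 ± 0.11, adjusted p = 0.00271), and per kb its level was 0.537 ± 0.074 of the Lmod3 level with TNF-alpha and 0.384 ± 0.038 with vehicle (SD, n = 3 each; exact permutation p = 0.1, 0.129 adjusted over 9 ratios). The Tmod4 to Lmod3 ratio overlapped between the groups (log2 difference -0.28, exact permutation p = 0.5, 0.5 adjusted over 9 ratios). Leaving out a library moved that difference to -0.15 and -0.45 (TNF-alpha replicates 2 and 3) and to -0.48 and -0.058 (vehicle replicates 1 and 3).

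**Figure D3:**
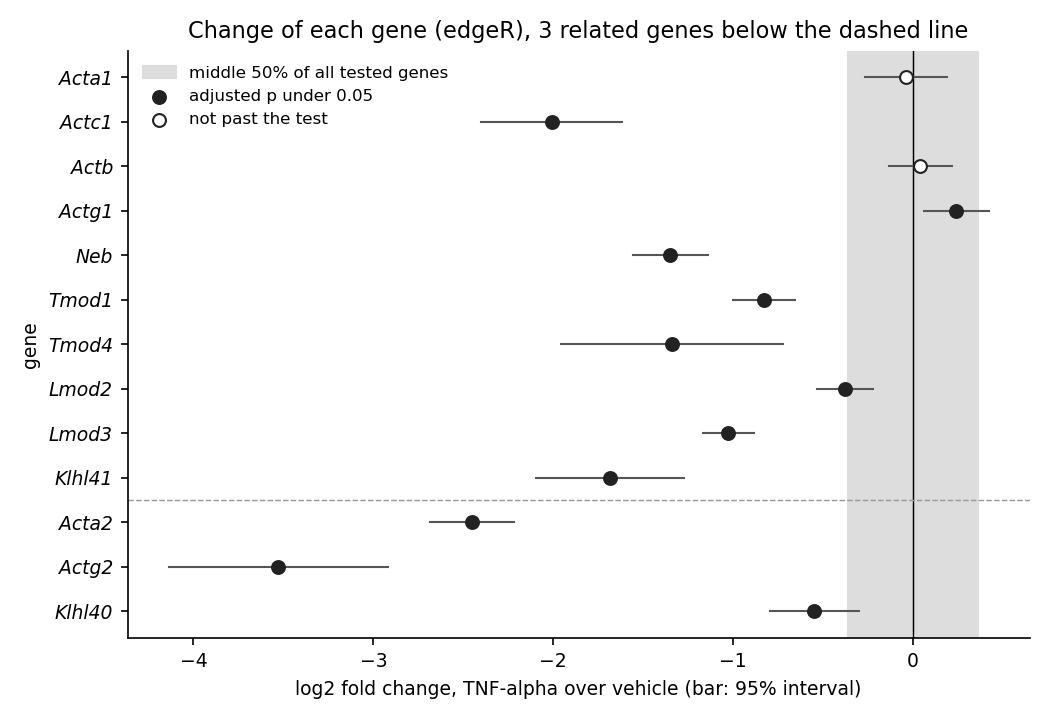
Log2 fold change of TNF-alpha over vehicle by edgeR with its 95% interval for the 10 genes, and for Acta2, Actg2 and Klhl40 below the dashed line, with filled points past an adjusted p of 0.05. The grey band spans the middle 50% of all tested genes, and Acta1 at -0.04, Actb at 0.04 and Actg1 at 0.24 lie within it.

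**Figure D4:**
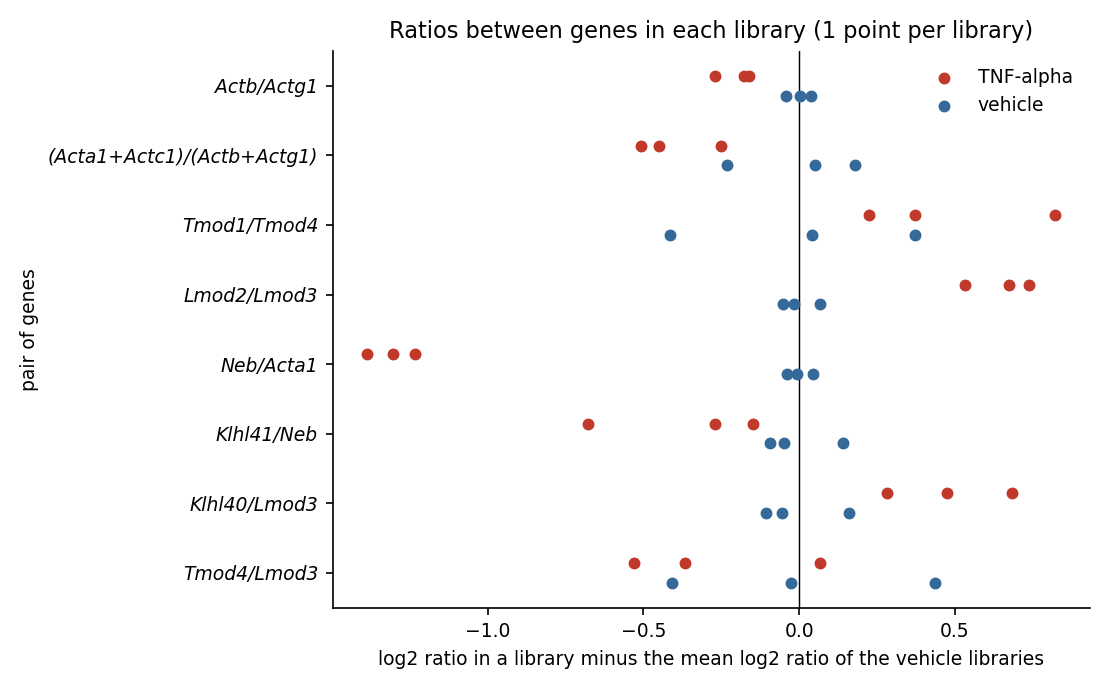
Log2 ratio between pairs of genes in each library, set against the mean of the vehicle libraries at 0 (red, TNF-alpha; blue, vehicle; 1 point per library). The Neb to Acta1 and Lmod2 to Lmod3 ratios differ between the groups by -1.31 and 0.65 and stand well apart, while Tmod1/Tmod4 and Tmod4/Lmod3 overlap.

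Levels can be ordered across the genes only per length. With TNF-alpha the order, in CPM per kb of exon, was Acta1 (2177 ± 214), Actg1 (757 ± 6.87), Actb (526 ± 22.2), Actc1 (120 ± 26.3), Klhl41 (68.9 ± 16.9), Lmod2 (58.3 ± 2.04), Lmod3 (44.5 ± 1.80), Tmod1 (11.9 ± 0.87), Neb (9.03 ± 0.67) and Tmod4 (0.604 ± 0.125). With vehicle it was Acta1 (2237 ± 172), Actg1 (640 ± 48.7), Actb (512 ± 31.2), Actc1 (482 ± 59.8), Klhl41 (221 ± 5.59), Lmod3 (90.6 ± 4.26), Lmod2 (75.8 ± 5.60), Neb (23.0 ± 2.19), Tmod1 (21.1 ± 1.43) and Tmod4 (1.53 ± 0.50). Neighbours in this order whose libraries overlapped were Klhl41 and Lmod2 with TNF-alpha, and Actb and Actc1 as well as Neb and Tmod1 with vehicle. By exon length, Actc1 thus overlapped Actb in vehicle constructs and lay below all 3 Actb values in TNF-alpha constructs. The nearness of Actc1 and Actb in vehicle constructs depends on that choice of length. With the longest annotated transcript as the length, their vehicle means were 530 (Actc1) and 714 (Actb) CPM per kb. In TNF-alpha constructs they were 132 and 734 CPM per kb. By the same length, the Neb level in vehicle constructs was 27.2 and the Tmod1 level 26.4 CPM per kb, and in TNF-alpha constructs 10.7 and 14.8 CPM per kb.

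RefSeq promoter windows on GRCm38.p6, from 250 bases before to 50 bases after each gene's start, were found for 7 of the 10 genes (Acta1, Actc1, Actg1, Tmod1, Tmod4, Lmod2 and Klhl41). They are shown because actins that moved differently shared a motif there. A perfect CArG box, the motif bound by serum response factor (SRF), began at -73 from the start of Acta1, at -47 from that of Actc1 and at -90 from that of Actg1. A site for MEF2, a muscle transcription factor, began at -63 from that of Klhl41. The lines below give 60 bases around each motif on the gene's own strand, with the motif in capitals, at chr8:123894814-123894873 (minus), chr2:114052888-114052947 (minus), chr11:120348551-120348610 (minus) and chr2:69670032-69670091 (plus).
Acta1: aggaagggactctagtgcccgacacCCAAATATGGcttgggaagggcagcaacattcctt
Actc1: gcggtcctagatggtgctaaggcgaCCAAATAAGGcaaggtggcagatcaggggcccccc
Actg1: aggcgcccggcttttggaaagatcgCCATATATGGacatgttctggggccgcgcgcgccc
Klhl41: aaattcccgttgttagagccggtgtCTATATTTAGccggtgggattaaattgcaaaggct
On either strand, 1.63% of all 32851 promoter windows held a perfect CArG box and 3.19% a MEF2 site. The MCAT motif (CATTCC, either strand), found in Acta1 and Tmod1, occurred in 14.7% of windows, and the E-box (CANNTG), found in 6 of the 7 windows but not that of Tmod1, in 72.3%. The CArG matches stand before the RefSeq starts of Acta1, with a log2 fold change of -0.04, Actc1 at -2.01 and Actg1 at 0.24. For Actc1 the RefSeq start lies inside the GENCODE span of the gene given above, and so does the stretch shown. Outside the 7 genes, the window of Acta2 (log2 fold change -2.45) held 0 perfect CArG boxes, 1 MCAT motif and 3 E-boxes. Only perfect CArG boxes were sought, so imperfect ones were not counted in any window. A match is a description of the letters in a window, not of binding.

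Around these genes, the lists of thin-filament proteins that sit in the sarcomere fell for the most part, while lists of general actin regulators held both risen and fallen genes, as did the whole table (27.6% risen, 27.9% fallen). The difference between the lists was not tested. Of the 11 troponin and tropomyosin genes, 9 fell and 1 rose, with 1 not past the test (median log2 fold change -0.67). Fast troponin C (Tnnc2) fell by 1.65 ± 0.08 on the log2 scale and slow troponin I (Tnni1) by 1.33 ± 0.08, while Tpm4, a tropomyosin of the cytoskeleton, rose by 0.57 ± 0.10 (adjusted p = 0.00128). Of 6 nebulin relatives and Kelch genes, 5 fell and Lasp1, a small nebulin-repeat protein chosen after its values were seen, was not past the test (0.21 ± 0.14, adjusted p = 0.234). Among the 5, Nebl and Kbtbd13 were near the floor of detection. Nebl had 0.098 CPM with TNF-alpha and 0.462 CPM with vehicle, and Kbtbd13 had 0.093 and 0.421 CPM. With the stricter filter on low counts, 3 fell. The muscle Kelch gene Klhl31 fell by 2.08 ± 0.09 and Nrap, a nebulin-related protein of myofibril assembly, by 1.03 ± 0.09.

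Of the other tropomodulins and leiomodins, the smooth-muscle leiomodin Lmod1 fell by 0.68 ± 0.19 (adjusted p = 0.0130, and 0.0548 without TNF-alpha replicate 3). The broadly expressed Tmod3 rose by 0.20 ± 0.06 (adjusted p = 0.0230), a call lost under the same 5 alternatives as that of Actg1. Tmod2 had a log2 fold change of -0.74 ± 0.32 (adjusted p = 0.0797).

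Among 16 genes of barbed-end capping and Z-disc anchorage, 12 fell and 1 rose, with 3 not past the test (median -0.66). The LIM protein gene Fhl1 fell by 1.22 ± 0.09 and Myot, encoding the Z-disc protein myotilin, by 1.49 ± 0.11. The cytoskeletal alpha-actinin genes moved in opposite directions. Actn1 rose by 0.54 ± 0.06 (adjusted p = 1.07e-04), whereas Actn4 had a log2 fold change of -0.62 ± 0.06 (adjusted p = 3.5e-05). Actn4 is named here only because it ran against Actn1. The barbed-end capping subunits Capza1 and Capzb, chosen after their values were seen, were not past the test (0.07 ± 0.07 and 0.03 ± 0.06), and Capza2 fell by 0.18 ± 0.06 (adjusted p = 0.0297).

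Of 16 genes of actin monomer binding and depolymerization, 4 rose and 4 fell, with 8 not past the test (median -0.03). The severing protein gene Gsn (gelsolin) fell by 1.68 ± 0.08 and the monomer-binding thymosin gene Tmsb4x by 0.70 ± 0.08, while the profilin gene Pfn2 rose by 0.67 ± 0.08. Of 22 genes of actin nucleation, 7 rose and 9 fell, with 6 not past the test (median -0.03). The number fallen was 6 without TNF-alpha replicate 1 or 3 or vehicle replicate 1 or 3, and also 6 with the replicate block. The formin-family genes Daam2 and Fmnl3 fell by 2.60 ± 0.06 and 0.61 ± 0.07, and Actr3, a subunit of the Arp2/3 complex, rose by 0.50 ± 0.06 (adjusted p = 2.07e-04).

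Of 13 genes of SRF, its coactivators and known targets, 6 fell and 0 rose, with 7 not past the test (median -0.45). Among the 6, Myocd was near the floor of detection, at 0.066 CPM with TNF-alpha and 0.261 CPM with vehicle. With the stricter filter on low counts, 5 fell. The coactivator genes Mkl1 and Mkl2, chosen after their values were seen, were not past the test (0.01 ± 0.08 and -0.03 ± 0.06). Ablim3, an actin-binding LIM protein, fell by 2.31 ± 0.16 and the LIM protein gene Fhl2 by 0.69 ± 0.07, and Srf itself, chosen after its values were seen, had a log2 fold change of -0.09 ± 0.06 (adjusted p = 0.196). Of 13 folding and assembly chaperones, 7 fell and 1 rose, with 5 not past the test (median -0.21). The methyltransferase gene Smyd1 and the myosin chaperone gene Unc45b, both needed for sarcomere assembly, had log2 fold changes of -1.48 ± 0.08 and -1.20 ± 0.12. Hsp90aa1, an HSP90 chaperone gene, rose by 0.31 ± 0.09 (adjusted p = 0.0180, but 0.0507 without TNF-alpha replicate 1 and 0.0575 without vehicle replicate 2).

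**Figure D5:**
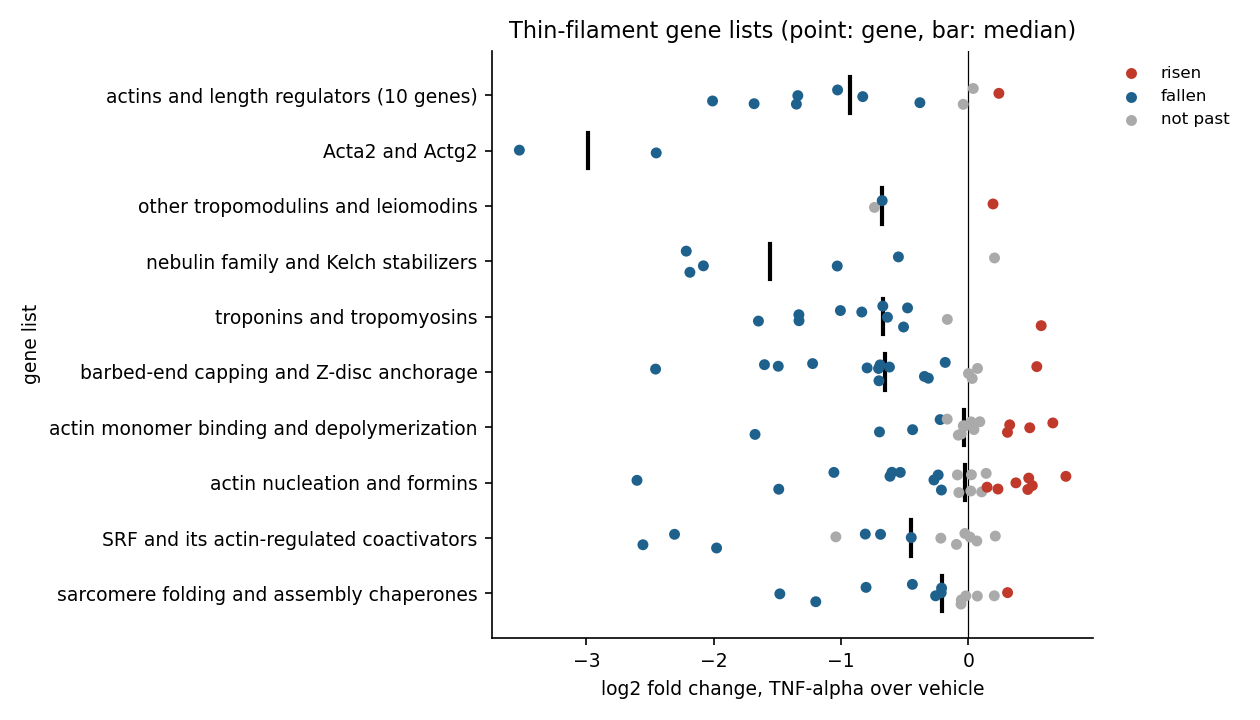
Log2 fold change of TNF-alpha over vehicle for the 10 genes and for the pathway lists around them (1 point per gene; red, risen; blue, fallen; grey, not past an adjusted p of 0.05; black bar, median). The 10 genes have a median of -0.93, troponins and tropomyosins -0.67, and the lists of actin monomer binding and nucleation -0.03 each.

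For each of the 10 genes, the genes of at least 5 CPM with the most similar profile were sought by the root mean square difference of centred log2 CPM over the 6 libraries. Those nearest to Actc1 were Dhrs7c (0.103), Klhl13 (0.121) and Igfn1 (0.150). Those nearest to Neb were Pgam2 (0.052), Hrc (0.057) and Ppfia4 (0.067), and those nearest to Lmod3 were Casq2 (0.032), Arpp21 (0.038) and Foxc1 (0.044). Klhl41 was nearest to Col1a2 (0.093), Bgn (0.096) and Cdon (0.097). Acta1 was nearest to Sbf1 (0.036), Atp2a2 (0.038) and Cds2 (0.040), none of which was past the edgeR test. With 6 libraries in 2 groups, a small difference mostly reflects a similar change between the groups.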

How the data were processed

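RNA sequencing of 6 polyadenylated libraries was analysed, 3 with TNF-alpha and 3 with vehicle, grouped by sample title. The deposited values are estimated counts per gene: decimals occur in 20.1% to 21.0% of each library's values, although the series' design text calls them whole. Per the submitters' processing notes, TopHat2 2.1.1, Bowtie2 2.3.5.1, featureCounts of Subread 2.0.0 and DESeq2 were named with builds mm10 and GRCm38. Counting options and strand use: not given in the sources used here.

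Counts were rounded, filtered with filterByExpr, scaled with TMM and tested with glmQLFit (robust) and glmQLFTest of edgeR 4.0.16 in R 4.3.3, with group as the only term. Adjustment was by Benjamini-Hochberg over all 15792 tested genes. Standard errors were derived from the F statistic, and intervals use the test's degrees of freedom. The biological coefficient of variation was 12.1%. Levels per kb use the union of GENCODE M21 exons (GRCm38). Ratios (prior count 0.5) and shares were tested by exact permutation (two-sided), and 1 of the 9 ratios tested is not reported here. Alternatives included DESeq2 1.42.0 and limma 3.58.1 (voom). No replicates were duplicates by a chi-square test of their counts (23.1 to 70.6 per degree of freedom).

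The 10 genes and the 15 lists (150 entries, with older table symbols such as Diap1 for Diaph1) were chosen with earlier results of these data known. Named genes were the 10, Acta2, Actg2, Klhl40, and of each pathway list the 2 most significant genes of the commoner direction and the most significant 1 of the opposite direction, plus nearest profiles. Genes named otherwise were chosen after their values were seen.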

Additional observations from a re-analysis of the deposited data

How the results depend on the processing

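The 7 falls among the 10 genes kept their direction and their call under all 15 alternatives, with 7 fallen in each. The number risen, 1 (Actg1), was 0 with upper-quartile scaling and 0 to 1 without 1 library. Over the whole table, 4366 genes rose and 4403 fell, in ranges of 3674 to 4432 and 3747 to 4763. No scaling moved the median log2 fold change of all genes by over 0.1. The log2 fold change of Acta1, -0.04, ranged from -0.12 to 0.025 without 1 library (0.025 without TNF-alpha replicate 1, 0.0078 without vehicle replicate 2), and that of Actb, 0.04, from -0.010 (without vehicle replicate 2) to 0.076.

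The sum of Acta1 and Actc1 passed the test with upper-quartile scaling (-0.29, adjusted p = 0.0380), DESeq2 (-0.25, adjusted p = 0.0240) and the replicate block (-0.26, adjusted p = 0.0474), and ranged from -0.34 to -0.19 without 1 library. The sum of all 6 actins ranged from -0.33 to -0.24 without 1 library, with adjusted p = 0.0575 without vehicle replicate 1. Of the lists, the risen tropomodulins numbered 0 with upper-quartile scaling and 0 to 1 without 1 library, risen nebulin relatives 0 to 1 without 1 library, and fallen nebulin relatives 3 with the stricter filter, which leaves fewer genes tested. Risen chaperones numbered 2 with DESeq2 and 0 to 2 without 1 library. Apart from the stricter filter, the cause was not tested.

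Same-numbered libraries did not pair (correlations of their deviations 0.043, -0.045 and -0.114). With the replicate block, 1 member rose and 7 fell, and 4242 of all tested genes rose and 4244 fell. Leaving out a library gives exact tests of 3 against 2, in which 0.2 is the smallest possible p. No ratio or share could therefore give a lower one, and these p-values do not show whether a difference depends on 1 library. Depth limits Tmod4, with 72 to 322 counts per library. Arms of 2 libraries borrow the spread estimated over all genes.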
